A study of Mus musculus with 9 samples.

Results

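Transcripts of the Wnt pathway were followed in Caki cells, a cultured line from a human kidney tumour, through 8 genes chosen by name: the ligands WNT5A, WNT5B, WNT7A and WNT7B, the secreted antagonist DKK1, and the transcriptional readouts AXIN2, LEF1 and TCF7. All 8 were found in the deposited table of 58735 human Ensembl genes, each in a single row. RNA was sequenced from 3 groups of cells, all carrying a retrovirus-based vector and all selected with G418 at 200 to 400 µg/ml: YAP1-S127A, a form the labels call constitutively active, in which alanine replaces the serine that the Hippo kinases phosphorylate, wild-type YAP1, and the empty vector MX. Each group held 3 libraries, 9 in all. Whether the 3 libraries of a group stem from separate cultures or infections is not stated in the labels, so the p-values measure a spread that may be technical only. In bulk RNA, fewer cells expressing a gene and less RNA per cell cannot be told apart.

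Wnt proteins are secreted lipid-modified ligands that bind Frizzled receptors together with coreceptors. In the canonical branch, ligand binding to Frizzled and LRP5 or LRP6 stops the destruction complex from degrading beta-catenin, which then enters the nucleus and activates genes bound by TCF and LEF factors. AXIN2, LEF1 and TCF7 are textbook targets of that branch, and AXIN2 is also a scaffold of the destruction complex, so its induction acts as negative feedback. DKK1 blocks the canonical branch by binding the LRP coreceptors. WNT5A and WNT5B are best known for signalling independent of beta-catenin, while WNT7A and WNT7B can activate the canonical branch. In the kidney, Wnt7b from the collecting duct is known in the mouse to be required for the medulla to form. YAP1 is a coactivator of TEAD factors held in the cytoplasm by Hippo phosphorylation, and it has known contacts with the beta-catenin destruction complex.

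Total counts were 15789722 to 21523444 in YAP1-S127A libraries, 17509045 to 22498605 in YAP1 libraries and 16228869 to 24811150 in MX libraries. Levels are given as CPM, counts scaled to a common library size after TMM normalisation, and 3 counts in a library stood for 0.107 to 0.229 CPM; this floor covers counting error only. The introduced transcript checked the labels: YAP1 averaged 688 ± 55.0 CPM in YAP1-S127A cells, 1220 ± 268 CPM in YAP1 cells and 99.9 ± 8.64 CPM in MX cells (SD, n = 3 each). Of 9 renal epithelial markers 7 averaged at least 1 CPM over all libraries, with PAX8 at 262, 297 and 285 CPM in YAP1-S127A, YAP1 and MX cells, while PAX2 had 1 count in all and CA9 averaged 0.334 CPM. Mitochondrial transcripts took 7.40 to 29.6% of counts in YAP1-S127A libraries, 3.50 to 11.4% in YAP1 libraries and 1.896 to 6.60% in MX libraries. The 6 fibroblast markers summed to 44.7 to 77.8 CPM in YAP1-S127A libraries, 27.3 to 31.8 CPM in YAP1 libraries and 29.1 to 36.4 CPM in MX libraries. Of these, 3 passed the filter on low counts, and LUM and PDGFRB were called higher with YAP1-S127A against both MX and YAP1 (adjusted p = 8.18e-08 and 0.00579 against MX by edgeR), while DCN was not called. LUM averaged 9.53, 2.53 and 0.871 CPM in YAP1-S127A, YAP1 and MX cells, and it was also called higher with YAP1 against MX (adjusted p = 0.00345). PDGFRB averaged 46.8, 26.03 and 30.2 CPM and COL3A1, which was not tested, 2.78, 0.124 and 0.0564 CPM in the same order. PDGFRA had 0, 0.0362 and 0.0921 CPM and THY1 0.129, 0.228 and 0.0357 CPM. The part of this list in the results was not tested. The 6 leukocyte and 5 endothelial markers summed to at most 1.63 and 1.89 CPM in any library.

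With YAP1-S127A, the ligands WNT5B and WNT7B and the antagonist DKK1 rose against MX, and the readouts AXIN2, LEF1 and TCF7 fell. With wild-type YAP1, the same ligands rose, but no other member passed the test, and DKK1 differed between the constructs by a log2 fold change of 1.86. WNT5A passed in no comparison, and WNT7A had no count in any library. Of the 8 members, 7 passed the filter on low counts. Calls were made at an adjusted p under 0.05 in the quasi-likelihood test of edgeR, after Benjamini and Hochberg over 15492 genes. The members and the pathway lists below were chosen with earlier results of these data known. Shares over all tested genes are therefore given for scale only, and no enrichment is concluded from them. Called members numbered 6 in YAP1-S127A against MX, 3 higher and 3 lower, where 18.4% of all tested genes were called, 9.53% higher and 8.84% lower. They numbered 2 in YAP1 against MX, both higher, where 6.81% of genes were called, 3.23% higher and 3.58% lower, and 2 in YAP1-S127A against YAP1, 1 higher and 1 lower, where 1.97% were called, 1.13% higher and 0.839% lower. Groups whose libraries did not overlap were common over all tested genes, at 32.6% in YAP1-S127A against MX, 24.1% in YAP1 against MX and 19.6% in YAP1-S127A against YAP1. The median log2 fold change of the 7 was 0.01, 0.06 and 0.29 in these comparisons, against -0.0045, -0.0036 and 0.0056 over all tested genes. That median is uninformative about any single gene, and in both comparisons with YAP1-S127A members were called in opposite directions.

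**Figure D1:**
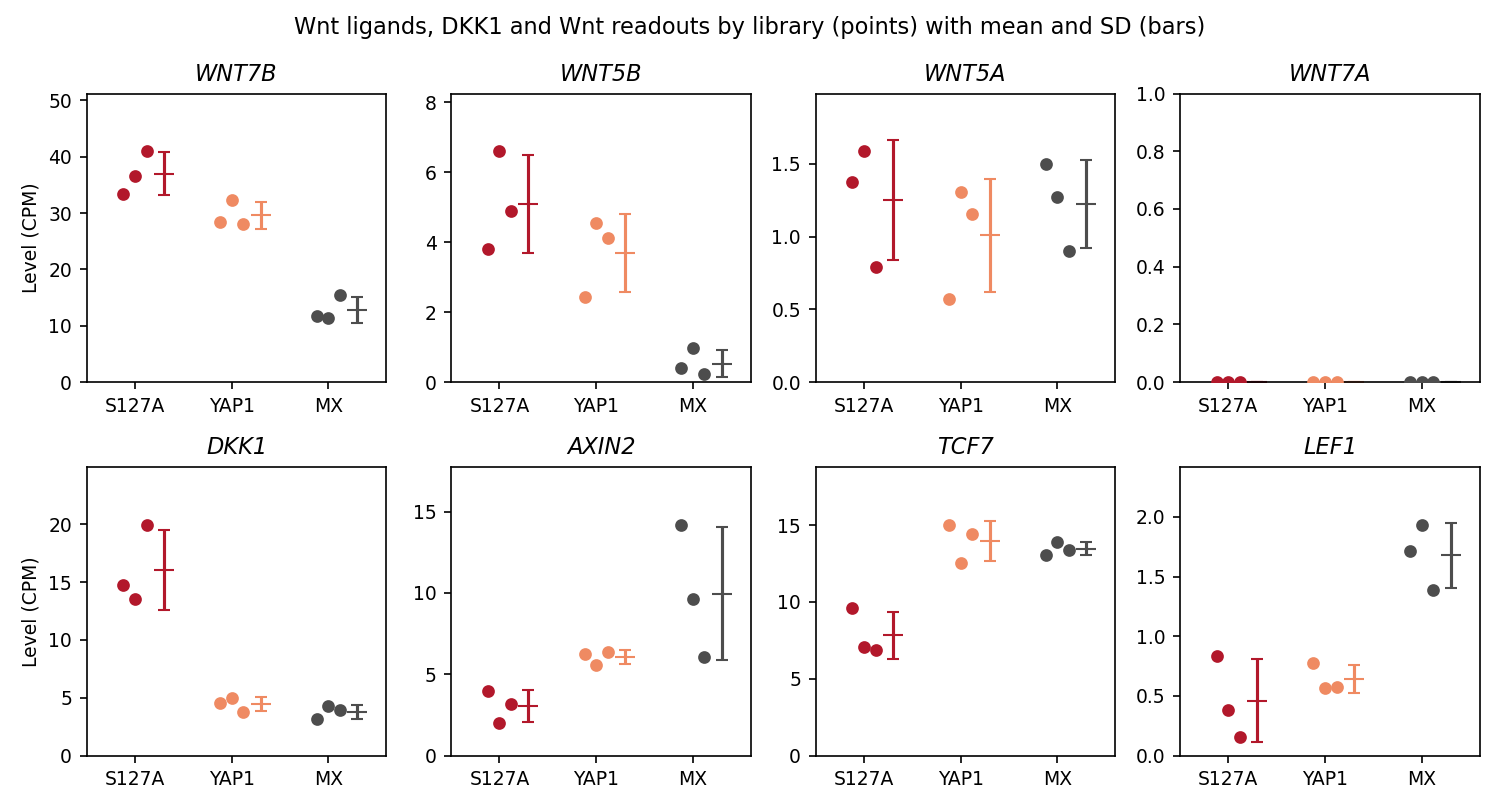
Level in CPM of each of the 8 genes in every library (points, 3 a group; S127A stands for YAP1-S127A), with the group mean and SD (cross and bars); each panel has its own scale from 0. DKK1 stands at 13.5 CPM or more in the YAP1-S127A libraries and at 4.99 CPM or less elsewhere, WNT7B and WNT5B are lowest in MX libraries, and AXIN2 is lowest in YAP1-S127A libraries.

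WNT7B (ENSG00000188064) lies on chromosome 22 from 45920362 to 45977129 on the minus strand in the table, which names no genome build. Its level was 33.3, 36.6 and 41.0 CPM in YAP1-S127A libraries, 28.4, 32.3 and 28.0 CPM in YAP1 libraries and 11.8, 11.3 and 15.5 CPM in MX libraries. All 6 libraries with a YAP1 construct lay above all MX libraries, and the lowest YAP1-S127A library lay above the highest YAP1 library. The log2 fold change against MX was 1.52 with YAP1-S127A (SE 0.14, adjusted p = 2.62e-07 by edgeR) and 1.20 with YAP1 (SE 0.14, adjusted p = 1.68e-05). Between the constructs it was 0.32 (95% interval 0.04 to 0.61, adjusted p = 0.328), so a difference of that size did not pass the test over all genes.

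WNT5B (ENSG00000111186, chromosome 12, 1529891 to 1647243, plus strand) was far lower than WNT7B. It had 50, 104 and 93 counts in YAP1-S127A libraries, 47, 80 and 93 in YAP1 libraries and 11, 16 and 6 in MX libraries. Scaled, these were 3.81, 6.60 and 4.89 CPM with YAP1-S127A, 2.44, 4.53 and 4.13 CPM with YAP1, and 0.392, 0.967 and 0.225 CPM with MX. The libraries of the constructs overlapped each other and lay above every MX library. The log2 fold change against MX was 3.39 with YAP1-S127A (SE 0.40, adjusted p = 5.37e-06 by edgeR) and 2.93 with YAP1 (SE 0.40, adjusted p = 8.82e-05). MX replicate 2 held the most WNT5B of its group, and without it the values were 4.01 and 3.55. Between the constructs the difference was 0.47 (95% interval -0.20 to 1.13, adjusted p = 0.603). FBXL14, a gene on the opposite strand whose span overlaps WNT5B, averaged 22.4, 18.6 and 18.5 CPM in YAP1-S127A, YAP1 and MX cells; the kit was stranded per the labels, but the sources do not give whether counting used the strand.

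WNT5A (ENSG00000114251, chromosome 3, 55465715 to 55490539, minus strand) was detected in every library with 11 to 42 counts. Its level was 1.37, 1.59 and 0.788 CPM with YAP1-S127A, 0.570, 1.30 and 1.15 CPM with YAP1, and 1.50, 1.27 and 0.902 CPM with MX. The 3 groups overlapped throughout. Against MX the log2 fold change was 0.01 with YAP1-S127A (95% interval -0.82 to 0.84, adjusted p = 0.988 by edgeR) and -0.28 with YAP1 (-1.10 to 0.55, adjusted p = 0.773), and 0.29 between the constructs (-0.57 to 1.14, adjusted p = 0.845). WNT7A (ENSG00000154764, chromosome 3, 13816258 to 13880121, minus strand) had 0 counts in all 9 libraries, which allows up to 3 counts a library.

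Over all 19 human Wnt ligands, 6 passed the filter on low counts. Against MX, 3 of these rose and 0 fell with each construct. Of all tested genes, 9.53% rose and 8.84% fell with YAP1-S127A, and 3.23% and 3.58% with YAP1. Besides WNT5B and WNT7B, the ligand that rose was WNT10A, outside the 8 chosen genes. It stood at 13.0, 14.8 and 17.7 CPM with YAP1-S127A, 3.78, 4.87 and 5.55 CPM with YAP1, and 2.00, 3.57 and 2.78 CPM with MX. Its log2 fold change was 2.48 with YAP1-S127A (SE 0.22, adjusted p = 1.01e-07 by edgeR) and 0.80 with YAP1 (SE 0.22, adjusted p = 0.0352) against MX, and 1.68 between the constructs (SE 0.21, adjusted p = 0.000238). Its call with YAP1 was lost when MX replicate 1 or 3, or YAP1 replicate 2 or 3, was left out (adjusted p = 0.0934 to 0.193), in the fit of only these groups (0.0720) and with the mitochondrial covariate (0.0969). WNT3 and WNT2B did not pass against MX, with log2 fold changes of 0.23 and 0.16 with YAP1-S127A and 0.31 and 0.25 with YAP1.

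To set genes side by side, levels were divided by the gene length deposited with the counts, in kilobases. The definition of that length is not stated, so values compare between genes only as far as it fits the transcripts present. By this measure the 19 ligands summed to 16.2 ± 1.63 CPM per kilobase in YAP1-S127A cells, 11.4 ± 1.20 in YAP1 cells and 6.20 ± 0.294 in MX cells (SD, n = 3 each). The libraries of the 3 groups did not overlap in this sum. WNT7B made up 45.1% ± 0.795 of it in YAP1-S127A cells, 51.5% ± 4.19 in YAP1 cells and 40.9% ± 5.30 in MX cells (SD, n = 3 each), the largest share in each group mean. WNT10A came next in YAP1-S127A cells, with 27.4% ± 1.60, against 12.1% ± 1.53 in YAP1 cells and 13.1% ± 3.76 in MX cells. WNT3 came next in the other groups, with 14.01% ± 1.42, 20.8% ± 2.34 and 31.0% ± 4.01 in YAP1-S127A, YAP1 and MX cells. WNT5B took 7.28% ± 1.80, 7.41% ± 1.58 and 2.01% ± 1.51, and WNT5A 1.06% ± 0.401, 1.17% ± 0.355 and 2.69% ± 0.767, in the same order of groups. The falling shares of WNT3 and WNT5A stand beside levels that did not pass the test.

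**Figure D2:**
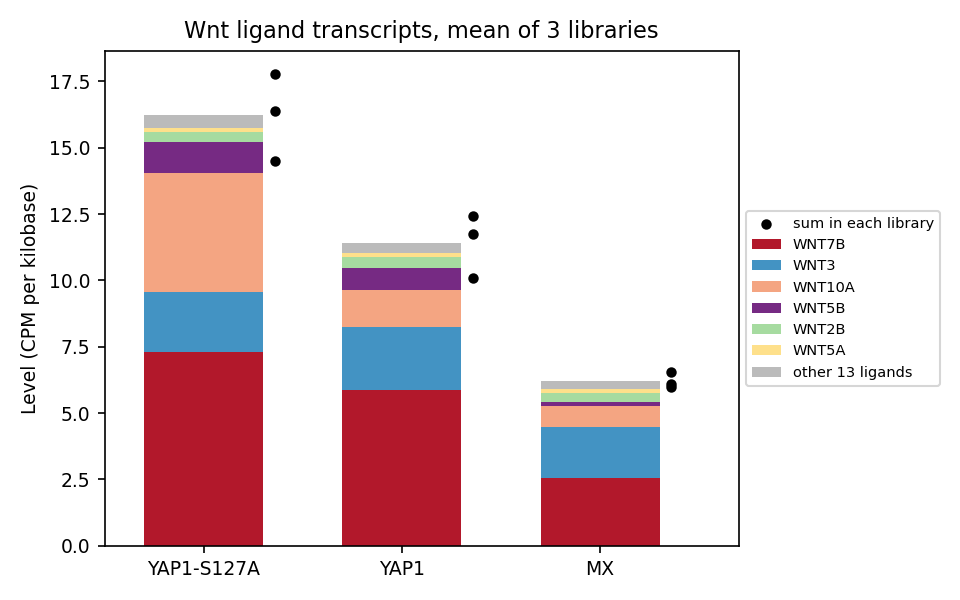
Mean level over 3 libraries of each Wnt ligand in CPM per kilobase of gene length (stacked bars from 0) in YAP1-S127A, YAP1 and MX cells, with the sum over 19 ligands in each library (black points). The sums stand at 14.5 to 17.8 in YAP1-S127A, 10.1 to 12.4 in YAP1 and 5.99 to 6.53 in MX libraries, and WNT7B is the largest block in each bar.

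DKK1 (ENSG00000107984, chromosome 10, 52314296 to 52318042, plus strand) had 193, 213 and 380 counts in YAP1-S127A libraries, 88, 88 and 86 in YAP1 libraries and 88, 71 and 104 in MX libraries. Scaled, its level was 14.7, 13.5 and 20.0 CPM with YAP1-S127A, 4.56, 4.99 and 3.82 CPM with YAP1, and 3.14, 4.29 and 3.91 CPM with MX. The YAP1-S127A libraries stood apart from the other 6, and the YAP1 and MX libraries overlapped. With YAP1-S127A the log2 fold change was 2.10 against MX (SE 0.19, adjusted p = 2.17e-07 by edgeR) and 1.86 against YAP1 (SE 0.19, adjusted p = 3.32e-05). That of YAP1 against MX was 0.24 (95% interval -0.18 to 0.67, adjusted p = 0.572). The YAP1-S127A cells that held more DKK1 than the YAP1 cells held less of the YAP1 transcript, with a log2 fold change of -0.83 for YAP1 itself (adjusted p = 0.00383). Transcripts of the endogenous and the introduced YAP1 were not separated in the table.

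Among 16 secreted or surface antagonists, 7 passed the filter. With YAP1-S127A 2 rose and 1 fell against MX, where 9.53% and 8.84% of all tested genes did. DKK3, a dickkopf relative that does not share the LRP binding of DKK1, was the most abundant of the antagonists per kilobase. Its level was 412, 576 and 545 CPM with YAP1-S127A, 236, 237 and 257 CPM with YAP1, and 75.0, 101 and 94.2 CPM with MX. No library of one group overlapped another group. The log2 fold change was 2.50 with YAP1-S127A (SE 0.15, adjusted p = 8.53e-10 by edgeR) and 1.43 with YAP1 (SE 0.14, adjusted p = 2.19e-06) against MX, and 1.07 between the constructs (SE 0.14, adjusted p = 0.000360). So DKK3 was called in all 3 comparisons, where DKK1 was called in those that involve YAP1-S127A. SFRP4, a soluble Frizzled-related protein, fell by 1.14 with YAP1-S127A (adjusted p = 0.00661) and by 0.98 with YAP1 (adjusted p = 0.0307). With the mitochondrial share as a covariate its adjusted p was 0.159 and 0.0815, and with YAP1 the call was also lost without MX replicate 3 or any YAP1 replicate (adjusted p = 0.0959 to 0.162).

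AXIN2 (ENSG00000168646, chromosome 17, 65528563 to 65561647, minus strand) was lowest with YAP1-S127A. It had 52, 32 and 61 counts in YAP1-S127A libraries, 121, 98 and 144 in YAP1 libraries and 398, 159 and 162 in MX libraries, or 3.97, 2.03 and 3.20 CPM, 6.27, 5.55 and 6.39 CPM, and 14.2, 9.61 and 6.09 CPM. MX libraries were the most spread, with replicate 1 the highest, and MX replicate 3 lay within the range of the YAP1 libraries. AXIN2 fell with YAP1-S127A, with a log2 fold change of -1.71 against MX (SE 0.28, adjusted p = 0.000261 by edgeR). Without MX replicate 1 it was -1.36 (adjusted p = 0.000594), and with the mitochondrial share as covariate it was -2.38. With YAP1 it was -0.71 (95% interval -1.25 to -0.18, adjusted p = 0.111). That value was -0.36 without MX replicate 1 (adjusted p = 0.400) and passed without MX replicate 3 (-0.98, adjusted p = 0.0178). Between the constructs it was -0.996 (95% interval -1.60 to -0.39, adjusted p = 0.0928), which passed in 8 of 19 alternatives, among them those without MX replicate 1 or 3 (adjusted p = 0.0201 and 0.0370, and 0.000625 to 0.313 over all).

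TCF7 (ENSG00000081059, chromosome 5, 134114711 to 134151865, plus strand), which encodes the factor TCF-1, was lower with YAP1-S127A than in both other groups. Its level was 9.61, 7.04 and 6.88 CPM with YAP1-S127A, 15.0, 12.5 and 14.4 CPM with YAP1, and 13.1, 13.9 and 13.4 CPM with MX. The YAP1-S127A libraries stood below the other 6, and the YAP1 and MX libraries overlapped. With YAP1-S127A the log2 fold change was -0.79 against MX (SE 0.16, adjusted p = 0.00148 by edgeR) and -0.84 against YAP1 (SE 0.16, adjusted p = 0.00584). The call between the constructs was lost without YAP1-S127A replicate 3 (adjusted p = 0.0644). With YAP1 against MX it was 0.06 (95% interval -0.26 to 0.37, adjusted p = 0.883). SKP1, a far more abundant gene on the opposite strand whose span overlaps TCF7, averaged 227, 215 and 212 CPM in YAP1-S127A, YAP1 and MX cells.

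LEF1 (ENSG00000138795, chromosome 4, 108047545 to 108168956, minus strand) had few counts, with a mean of 0.926 CPM over all libraries. There were 11, 6 and 3 counts in YAP1-S127A libraries, 15, 10 and 13 in YAP1 libraries and 48, 32 and 37 in MX libraries. Its level was 0.839, 0.381 and 0.158 CPM with YAP1-S127A, 0.777, 0.567 and 0.577 CPM with YAP1, and 1.71, 1.93 and 1.39 CPM with MX. All libraries with a construct lay below all MX libraries, and the YAP1-S127A libraries spanned the range of the YAP1 libraries. The log2 fold change against MX was -1.94 with YAP1-S127A (SE 0.46, adjusted p = 0.00581 by edgeR). Without YAP1-S127A replicate 1 it was -2.65, and without replicate 3 it was -1.46 (adjusted p = 0.0499). With YAP1 it was -1.37 (95% interval -2.25 to -0.50, adjusted p = 0.0558), which passed in 8 of 19 alternatives (adjusted p = 0.0237 to 0.202 over all), among them those without YAP1-S127A replicate 1 or 3 (0.0410 and 0.0403). Between the constructs it was -0.56 (95% interval -1.64 to 0.51, adjusted p = 0.726). LEF1-AS1, a gene on the opposite strand that overlaps LEF1, had 31 counts in all 9 libraries and averaged 0.0423, 0.0912 and 0.387 CPM in YAP1-S127A, YAP1 and MX cells, lowest where LEF1 was lowest. Without a known strand setting, reads of LEF1 and LEF1-AS1 cannot be told apart.

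**Figure D3:**
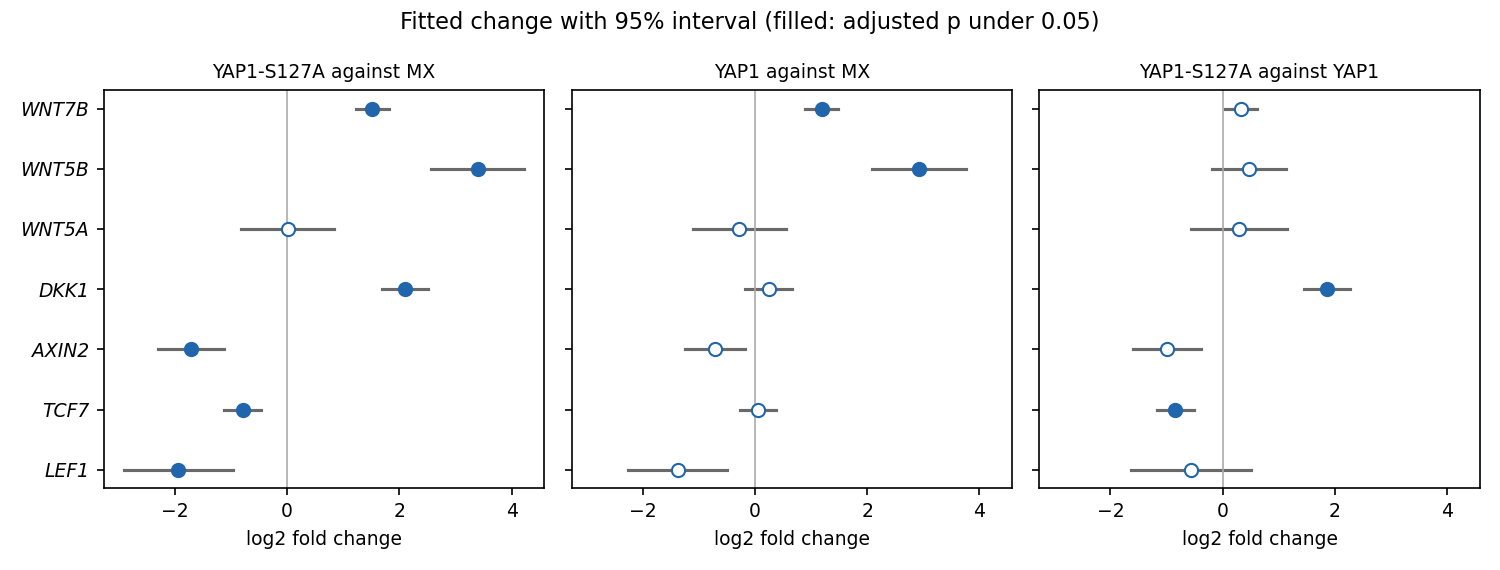
Log2 fold change (x axis) of the 7 tested genes in YAP1-S127A against MX, YAP1 against MX and YAP1-S127A against YAP1, with 95% intervals; filled points had an adjusted p under 0.05 in edgeR's test. WNT7B and WNT5B lie to the right of 0 for both constructs against MX, the interval of DKK1 does so in the comparisons with YAP1-S127A and spans 0 in YAP1 against MX, and AXIN2 and LEF1 lie to the left in each comparison.

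Per kilobase of gene length, the order of the 8 genes differed between groups. In YAP1-S127A cells WNT7B (7.32 ± 0.760 CPM per kilobase) and DKK1 (7.28 ± 1.56) came first and overlapped, then WNT5B (1.18 ± 0.326), TCF7 (0.779 ± 0.152) and AXIN2 (0.587 ± 0.187), of which each overlapped the next. In YAP1 cells WNT7B (5.86 ± 0.467) was followed without overlap by DKK1 (2.02 ± 0.269), TCF7 (1.39 ± 0.130), AXIN2 (1.16 ± 0.0866) and WNT5B (0.859 ± 0.258). In MX cells WNT7B (2.55 ± 0.452), AXIN2 (1.91 ± 0.777) and DKK1 (1.71 ± 0.266) overlapped in that order, then came TCF7 (1.34 ± 0.0409) and LEF1 (0.313 ± 0.0510) (SD, n = 3 each). WNT5B thus ranked behind DKK1 with YAP1-S127A and behind WNT5A in MX cells, where their libraries overlapped. Of the 4 TCF and LEF factors, TCF7L2 held the largest share per kilobase in each group, 64.0% ± 5.49, 55.9% ± 2.67 and 61.6% ± 0.621 in YAP1-S127A, YAP1 and MX cells. TCF7 held 16.7% ± 3.61, 25.7% ± 4.28 and 22.8% ± 1.58, and LEF1 1.84% ± 1.43, 2.19% ± 0.368 and 5.31% ± 0.705 in the same order (SD, n = 3 each). TCF7L2 itself did not pass, with log2 fold changes of -0.27 (adjusted p = 0.181 by edgeR) with YAP1-S127A and -0.24 (adjusted p = 0.339) with YAP1.

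Across 9 lists of Wnt pathway genes, 106 genes in all with the 8 included, 69 passed the filter. In YAP1-S127A against MX 13 rose and 10 fell, where 9.53% and 8.84% of all tested genes did. In YAP1 against MX 7 rose and 2 fell, where 3.23% and 3.58% of all tested genes did, and in YAP1-S127A against YAP1 3 rose and 2 fell, where 1.13% and 0.839% did. Without YAP1 replicate 2 the count in YAP1 against MX was 4 higher and 0 lower, without YAP1 replicate 3 it was 3 and 0, and between the constructs it was 3 and 5 without MX replicate 1. The median log2 fold change of the 69 was 0.07, 0.13 and -0.05 in these comparisons. Under total-count scaling, with which the median over all tested genes was -0.28, -0.08 and -0.20, the counts were 9 higher and 24 lower, 5 and 4, and 3 and 8. Over all tested genes that scaling gave 611 higher and 3836 lower, against 1476 and 1369 with TMM, for YAP1-S127A against MX. For YAP1 against MX it gave 311 and 679, against 500 and 555, and between the constructs 113 and 503, against 175 and 130. Under every scaling tried the 6 members called in YAP1-S127A against MX kept their directions and calls. With the mitochondrial share as covariate the pathway count in YAP1-S127A against MX was 7 higher and 9 lower, and the 6 members were again called.

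Of the 16 transcriptional readouts, 9 passed the filter. With YAP1-S127A 2 of these rose and 3 fell against MX, where 9.53% and 8.84% of all tested genes did. Those that rose were DKK1, which is itself a known beta-catenin target, and SP5, a zinc finger factor. SP5, named although it fell outside the rule for named genes, rose by 1.44 on the log2 scale (adjusted p = 0.0320 by edgeR), with 1.87 ± 0.881 CPM in YAP1-S127A cells and 0.704 ± 0.290 CPM in MX cells (SD, n = 3 each). Its call was lost without MX replicate 1 or 3 or YAP1-S127A replicate 2 (adjusted p = 0.0678 to 0.201) and with the mitochondrial covariate (0.121). AXIN2, LEF1 and TCF7 were the 3 that fell. CCND1 (0.26, adjusted p = 0.123), ZNRF3, a ligase that removes Frizzled receptors (-0.33, adjusted p = 0.143), and TNFRSF19 (-0.35, adjusted p = 0.186) did not pass. MYC, the remaining readout that passed the filter, was at 0.07 with YAP1-S127A (adjusted p = 0.796) and rose with YAP1 by 0.47 (adjusted p = 0.0450). The MYC call was lost without MX replicate 1 or 2, any YAP1 replicate or YAP1-S127A replicate 1 (adjusted p = 0.0531 to 0.156), and under total-count scaling (0.151) and the mitochondrial covariate (0.115). The other 7, among them NKD1, LGR5, NOTUM and RNF43, had too few counts to test.

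On the receiving side, 14 of 18 receptors and coreceptors passed the filter, and 2 rose and 1 fell with YAP1-S127A against MX, a share close to the 18.4% called over all tested genes. ROR1, a receptor for WNT5A, rose by 0.96 with YAP1-S127A (adjusted p = 0.00718 by edgeR) and by 1.01 with YAP1 (adjusted p = 0.0112). Its call was lost with the mitochondrial covariate for YAP1-S127A (0.47, adjusted p = 0.322), and for YAP1 without MX replicate 2 or YAP1 replicate 3 (adjusted p = 0.0690 and 0.0571) and with a replicate block (0.0610). RYK, a receptor with an inactive kinase domain, rose by 0.39 and FZD5, a Frizzled, fell by 0.47 with YAP1-S127A. These calls were lost for RYK without MX replicate 3 or YAP1-S127A replicate 3 (adjusted p = 0.111 and 0.175), under total-count scaling (0.605) and with the mitochondrial covariate (0.553), and for FZD5 without YAP1-S127A replicate 2 or 3 (0.120 and 0.0575). FZD4 fell by 1.41 with YAP1 (adjusted p = 0.0263), a call lost without MX replicate 1 or 2 or any YAP1 replicate (adjusted p = 0.0549 to 0.114). In YAP1-S127A against YAP1 0 of the 14 passed edgeR's test, where 1.97% of all tested genes did, and 3 had an unadjusted p under 0.05. PORCN, the acyltransferase that lipidates Wnt proteins, rose by 0.85 with YAP1-S127A (adjusted p = 0.00495), while WLS, which carries them to the surface, had -0.22 (adjusted p = 0.198). LGR4, a receptor for R-spondins, fell by 0.46 with YAP1-S127A (adjusted p = 0.0189), and not without YAP1-S127A replicate 2 or 3 (0.0901 and 0.0511).

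Among 13 genes of the destruction complex and its transducers, all past the filter, 2 rose and 1 fell with YAP1-S127A against MX, again close to the 18.4% over all tested genes. With YAP1 0 were called by edgeR, where 6.81% of all tested genes were, and 3 had an unadjusted p under 0.05. DVL1, a dishevelled protein that relays the receptor signal, rose by 0.70 (adjusted p = 0.00109 by edgeR, and 0.0705 with the mitochondrial covariate), and AXIN2 was the gene that fell. DVL3, a second dishevelled protein, rose by 0.36 (adjusted p = 0.0260), a call lost without MX replicate 2 or 3 or YAP1-S127A replicate 1 or 2 (0.0515 to 0.111), under total-count scaling (0.708), with no filter (0.0661), in the fit of only these groups (0.0560) and with the mitochondrial covariate (0.0802). CTNNB1, which encodes beta-catenin, did not pass with YAP1-S127A, at 0.05 (adjusted p = 0.833). Of 12 nuclear TCF and LEF factors and partners 2 rose and 5 fell with YAP1-S127A, where 9.53% and 8.84% of all tested genes did. Besides LEF1 and TCF7, BCL9, a coactivator that binds beta-catenin, fell by 0.69 (adjusted p = 0.00130) and TLE4, a Groucho corepressor, fell by 0.58 (adjusted p = 0.00369). TLE1, another Groucho corepressor, rose by 0.50 (adjusted p = 0.00397), and had 0.23 (adjusted p = 0.272) under total-count scaling. With YAP1 it rose by 0.43 (adjusted p = 0.0230), a call lost without MX replicate 2 or YAP1 replicate 2 or 3 (adjusted p = 0.0557 to 0.113) and under total-count scaling (0.201). PYGO1 and PYGO2, which bind BCL9 proteins, complete these counts and were named after their values were seen. PYGO1 rose by 0.55 (adjusted p = 0.0459), a call lost on leaving out any library but MX replicate 1 (0.0509 to 0.180), under total-count scaling (0.328), in the fit of only these groups (0.0730) and with the mitochondrial covariate (0.528). PYGO2 fell by 0.37 (adjusted p = 0.0225), a call lost without MX replicate 3 or YAP1-S127A replicate 1 or 3 (0.0603 to 0.102) and with the mitochondrial covariate (0.381). In the planar polarity branch, 1 of 9 genes was called with YAP1-S127A against MX and 1 of 9 against YAP1. Over all tested genes 18.4% and 1.97% were called in these comparisons. In both the gene was VANGL2, a core polarity protein, which fell by 0.53 against MX (adjusted p = 0.00158 by edgeR) and by 0.63 against YAP1 (adjusted p = 0.00280).

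**Figure D4:**
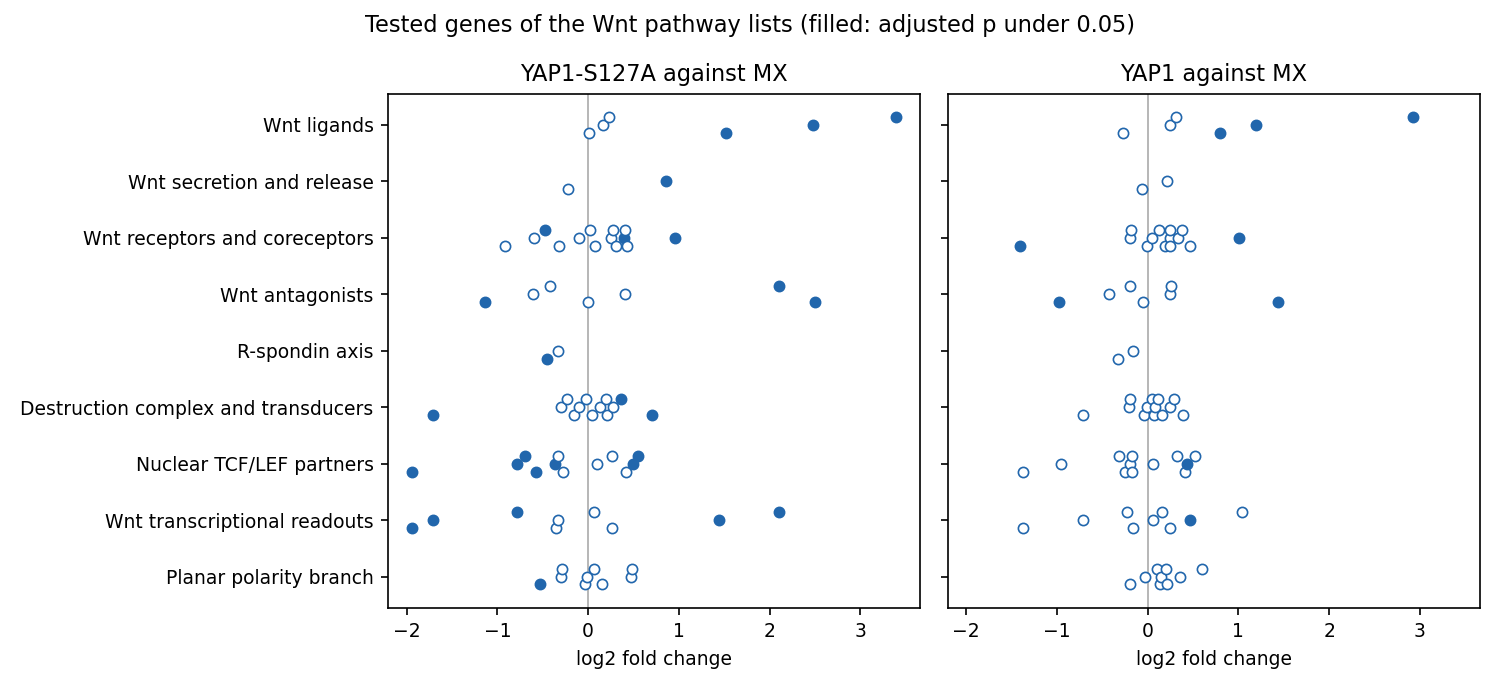
Log2 fold change (x axis) of each tested gene of the 9 Wnt pathway lists (rows) in YAP1-S127A against MX and YAP1 against MX; filled points had an adjusted p under 0.05 in edgeR's test, and a gene in 2 lists is drawn in each. Among ligands the 3 filled points lie to the right of 0 in both panels, and among nuclear partners 5 filled points lie to the left with YAP1-S127A.

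The genes whose level followed a member most closely were found by Pearson correlation of log2 CPM over the 9 libraries among 9634 abundant protein-coding genes, as a description without a test, since the libraries share 3 groups. For DKK1 they were UBE2B (r = 0.976), ADK (0.971) and C12orf75 (0.965). L1CAM, a cell adhesion molecule, came first for WNT5B (r = 0.984), with 936, 690 and 188 CPM in YAP1-S127A, YAP1 and MX cells, before TMEM255A (0.982) and CXCL16 (0.976). For WNT7B they were ATG5 (0.993), the cadherin CDH13 (0.981) and the aldehyde oxidase AOX1 (0.980). NAMPT (0.969), SMN2 (0.959) and BCL2L11 (0.959) came first for AXIN2, where SMN2 is uncertain because its near-identical copy SMN1 can share reads. TCF7 was followed by AKAP8 (0.973) and SH3BP4 (0.968). The highest values for WNT5A were lower, with RNF145 at 0.806, ALG2 at 0.797 and SLC35E3 at 0.771.

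The median log2 fold change over the tested genes of each member's chromosome was set beside it. In YAP1-S127A against MX the medians of chromosomes 3, 4, 5, 10, 12, 17 and 22 ran from -0.10 on chromosome 17, which holds AXIN2, to 0.07 on chromosome 3, which holds WNT5A. In YAP1 against MX they ran from -0.14 on chromosome 12, which holds WNT5B, to 0.05 on chromosome 3. Each called member's change was larger in size than the median of its chromosome. With medians this near 0 that outcome was all but fixed for called genes, so nothing is concluded from it.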

How the data were processed

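The deposited values are raw counts per gene in 9 libraries. The submitters' processing notes name HISAT2, Cufflinks, Salmon 1.9.0 and GRCm39 without their roles. GRCm39 is a mouse build and the labels name the mouse, but the deposited identifiers are human Ensembl genes and were read as human. The sources used here do not give the human build, the annotation or the strand setting of the counting. Libraries were grouped by their titles. Genes were kept by filterByExpr, 15492 of 58735, and scaled by TMM. All 3 groups were fitted together in edgeR 4.0.16 (R 4.3.3) with robust quasi-likelihood dispersions and group as the only term, and contrasts were tested two-sided. SE is the absolute log2 fold change over the square root of F, and 95% intervals use the t distribution with the fit's degrees of freedom. Levels per kilobase used the deposited gene length, whose definition is not stated. The 8 members and the lists were chosen with earlier results of these data known. Besides the members, named genes were up to 3 per list with the smallest p among those called against MX and averaging at least 1 CPM; others are given to complete small counts or as the factors a list turns on and were chosen after their values were seen. Nearest genes were sought with log2(CPM + 0.5) averaging at least 3, up to 3 per member, of which 1 is not reported here. Alternatives were RLE and total-count scaling, no or a stricter filter (10 counts in 6 libraries), DESeq2 1.42.0, limma-voom (limma 3.58.1), only the groups compared, a replicate block, mitochondrial genes left out, log2 mitochondrial share as covariate, and each library left out. The fit was tested on simulated counts. Replicates of each group differed by more than sampling noise. No column of other samples was found.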

Additional observations from a re-analysis of the deposited data

How the results depend on the processing

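Values of the 7 tested members under 19 alternatives kept their side of the threshold in 378 of 399 cases, 20 gained a call and 1 lost it. Of the other called pathway genes, 996 of 1083 values kept their side, 70 lost a call and 17 gained it. In both sets 0 values changed sign where either fit gave a call. Uncalled values could change sign and are counted as kept. WNT5A in YAP1-S127A against MX went from 0.01 to -0.34 with the mitochondrial covariate. Scaled to total counts, 4 members were called in YAP1 against MX in place of 2, all-gene calls were 4447 in YAP1-S127A against MX and 616 between the constructs, where 11 pathway genes were called. Without a filter on low counts 4 members were called in YAP1 against MX, and between the constructs 520 genes and 8 pathway genes. Between the constructs DESeq2 gave 475 genes and 8 pathway genes, and the fit of only these groups gave 478 and 8, against 305 and 5 as reported. The mitochondrial share as covariate gave 1286 genes in YAP1-S127A against MX, against 2845. With the replicate number as a block, 472 genes and 9 pathway genes were called between the constructs. The numbers were not shown to pair the libraries, since 3 of 9 same-number pairs had correlated deviations over 0.1 and 4 of 9 libraries correlated best with their own number. Without 1 library at a time, all-gene counts ran from 601 to 1423 in YAP1 against MX, 1847 to 3079 in YAP1-S127A against MX and 126 to 465 between the constructs. The counts moved by over 1.5 times without YAP1 replicate 2 (639) or 3 (601) in YAP1 against MX and without YAP1-S127A replicate 3 (1847) in YAP1-S127A against MX. Between the constructs they did so without MX replicate 1 (465), YAP1 replicates 1, 2 or 3 (189, 166 and 144) or YAP1-S127A replicates 2 or 3 (188 and 126). Pathway counts ran from 3 (without YAP1 replicate 3; 4 without replicate 2) to 10 in YAP1 against MX and from 4 to 8 (without MX replicate 1) between the constructs, and members called between the constructs from 1 (without YAP1-S127A replicate 3) to 3 (without MX replicate 1 or 3). The 6 members called in YAP1-S127A against MX were called in all 19 alternatives, LEF1 with an adjusted p of up to 0.0499. The cause of these shifts was not tested. Depth limits LEF1 and WNT5A, with 3 to 48 counts a library.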

Other observations

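Of the 106 pathway genes, 37 were too low for the test. Levels of a few, picked by no rule, are given without comparison and stand for no trend. WNT9A averaged 0.655 ± 0.185 CPM in YAP1-S127A cells, 0.314 ± 0.0749 CPM in YAP1 cells and 0.241 ± 0.177 CPM in MX cells. NOTUM, a secreted lipase that removes the lipid from Wnt proteins, averaged 0.492 ± 0.185, 0.107 ± 0.104 and 0.202 ± 0.192 CPM in the same order (SD, n = 3 each). WNT10B averaged 0.0677 ± 0.0639, 0.463 ± 0.193 and 0.0719 ± 0.0940 CPM, from 3, 27 and 6 counts. RSPO3, an R-spondin, averaged 0.0700 ± 0.121, 0.0739 ± 0.0871 and 0.286 ± 0.229 CPM, from 4, 4 and 18 counts. Of the 19 ligands, 3 had no count in any library.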
